A study of Mus musculus with 22 samples.

Results

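The Polycomb repressive complex genes described here are the 10 genes whose name in the gene-count table was Ezh1, Ezh2, Eed, Suz12, Jarid2, Mtf2, Ring1, Rnf2, Cbx7 or Bmi1. They were 10 of 34489 genes, and each name occurred once. Polycomb proteins hold developmental genes silent through a pair of complexes, PRC2, which methylates a lysine of histone H3, and PRC1, which ubiquitinates histone H2A and compacts chromatin. In pluripotent cells both complexes sit on the promoters of genes for later lineages. Their subunits come in alternative forms, so that the composition of each complex can differ between cell types.

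Mouse epiblast stem cells (mEpiSCs), which represent the primed state of pluripotency, had been treated with activators of the energy-sensing kinase AMPK, and the resulting cells were compared with naive mouse embryonic stem cells (mESCs). The bulk mRNA data held 22 libraries, and no line, treatment, day and passage was sequenced more than once. Without replicate libraries for any condition, each p-value between states below measures a difference against the spread between libraries of a state. For the line difference, primed and late reverted cells were also split by line. Within the unexpanded cultures, the day was measured against how its difference varied between media. AICAR was measured against the spread left after terms for day and AICAR, which includes differences between media. The naive state had 1 library, of Rex1-GFP mESCs with a GFP reporter of Rex1 (strain 129/Ola). The primed state had 2 libraries, 1 of Oct4GIP mEpiSCs (129/Ola), in which Oct4 regulatory sequence drives GFP and puromycin resistance, and 1 of 129/MSM mEpiSCs. Early reverted cells were 4 Oct4GIP libraries treated with AICAR or AICAR+LIF for 16 days and then grown for 2 or 3 passages in 2iL, a medium with LIF and inhibitors of MEK and GSK3. Late reverted cells were 7 libraries after 10 such passages. Of these, 2 were from 129/MSM, after AICAR with or without LIF, and 5 from Oct4GIP, after AICAR or the direct AMPK activator A769662, each with or without LIF, or after metformin+LIF. Another 8 libraries were Oct4GIP whole cultures without expansion, taken on day 8 (d8) or day 16 (d16) of AICAR, AICAR+LIF, 2iL or Basal medium. The labels place the primed cells on mouse embryonic fibroblast feeders (MEFs), whereas the published methods keep Oct4GIP on fibronectin and 129/MSM on MEFs, so it is not known how much feeder RNA the primed Oct4GIP library held. For the 16 days of treatment the methods plate cells on MEFs, so the whole cultures may have held feeder RNA by design. Each primed line and the naive state rest on 1 library.

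Total counts were 3189765 in naive mESCs, and 2584715 and 2965743 in primed Oct4GIP and 129/MSM mEpiSCs. They ranged from 2678787 to 3404489 in early reverted cells (median 2963711), from 1689495 to 3380314 in late reverted cells (median 2638336), from 438771 to 2860985 in d8 cultures (median 1676466) and from 2686012 to 5290163 in d16 cultures (median 3033660). A count of 3 corresponded to 6.84 CPM (counts divided by library size) in AICAR+LIF d8, the library with the lowest total, and to 0.567 CPM in Basal d16. Such floors cover counting error only. Between libraries of a state, chi-square per degree of freedom was lowest for AICAR and AICAR+LIF d16+2p (1.39 over 13451 genes) and for AICAR and AICAR+LIF d8 (1.76 over 10109 genes), and the next pair had 4.18. Counting error alone gives about 1. The value grows with depth, so that of the d8 pair, with totals of 956357 and 438771, cannot be ranked against deeper pairs. Whether libraries of a pair share material is not known, and they are counted as separate libraries throughout.

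Marker genes were read before the Polycomb genes, in CPM scaled by edgeR's TMM factors, as all levels below. Summed over the pluripotency genes Pou5f1, Nanog and Sox2, the level was 1892 CPM in naive mESCs, 1137 and 585 in primed Oct4GIP and 129/MSM mEpiSCs, 1765 to 2057 in early and 1435 to 1994 in late reverted cells. In Basal, 2iL, AICAR and AICAR+LIF, the order used for cultures throughout, the sums were 167, 214, 216 and 209 CPM at d8 and 310, 172.5, 131 and 148 at d16, with Sox2 at the highest CPM of the 3 in each. Pou5f1, which encodes OCT4, was at 0.742 to 34.5 CPM in the 8 cultures and at 470 to 1232 CPM in every other library, so the whole cultures lacked most of a defining transcript of the cells they were started from. The 5 naive markers Zfp42, Esrrb, Tfcp2l1, Klf2 and Nr5a2 summed to 3066 CPM in naive mESCs, 2009 to 2601 in early and 2672 to 3544 in late reverted cells, 17.2 and 24.5 in primed cells and 1.83 to 20.7 in the cultures, with Zfp42 at 0 in 7 of the 8 cultures. The 5 primed markers Fgf5, Otx2, Dnmt3b, Fst and Sox4 summed to 465 CPM in Oct4GIP and 1825 CPM in 129/MSM mEpiSCs, 61.8 in naive mESCs, 478 to 619 in early and 58.1 to 256 in late reverted cells, 646 to 1492 at d8 and 237 to 554 at d16. Dnmt3b had the highest CPM of them in naive, primed and reverted libraries, and Sox4 in all 8 cultures. The naive and reverted libraries thus carried the naive markers and the primed libraries did not. The early reverted libraries carried Dnmt3b as well, at 439 to 570 CPM, between primed Oct4GIP (242) and 129/MSM (882).

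Fibroblast and feeder markers were high in the cultures. The 10 fibroblast and feeder genes (Col1a1, Col1a2, Col3a1, Dcn, Lum, Postn, Thy1, Pdgfrb, Acta2 and Fn1) summed to 3912, 3679, 5774 and 5889 CPM at d8 and to 6202, 53040, 19916 and 23741 CPM at d16, where Col3a1 alone reached 17631 CPM in 2iL and Col1a1 had the highest CPM in the other media. The same sum was 185 CPM in primed Oct4GIP and 1841 CPM in primed 129/MSM mEpiSCs, 1959 in naive mESCs, 1469 to 2018 in early and 2226 to 3053 in late reverted cells. In the naive and reverted libraries nearly all of it was Fn1, and Dcn was at 0 in naive mESCs and in 8 of the 11 reverted libraries. The endothelial genes Kdr, Cdh5 and Pecam1 summed to 5.48 to 16.8 CPM at d8 and to 90.0, 35.3, 214 and 41.0 CPM at d16, with Cdh5 at 155 CPM in AICAR d16. Their sum in naive (146 CPM), early (109 to 145) and late (104 to 188) cells was nearly all Pecam1, and it was 4.48 and 9.34 CPM in primed cells. The cardiac and muscle genes Tnnt2, Myh6, Actc1 and Des summed to 126 CPM in AICAR+LIF d8, mostly Actc1, and to at most 73.8 CPM in any other library. The endoderm genes Sox17, Gata4, Gata6, Foxa2 and Afp summed to 387 CPM in 129/MSM mEpiSCs, led by Sox17, against 4.11 CPM in Oct4GIP mEpiSCs, where Sox17 and Afp were at 0, and at most 15.1 CPM elsewhere. In bulk RNA, fewer cells of a type and less RNA per cell cannot be told apart. The part of these other cells in the Polycomb results was not tested.

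**Figure D1:**
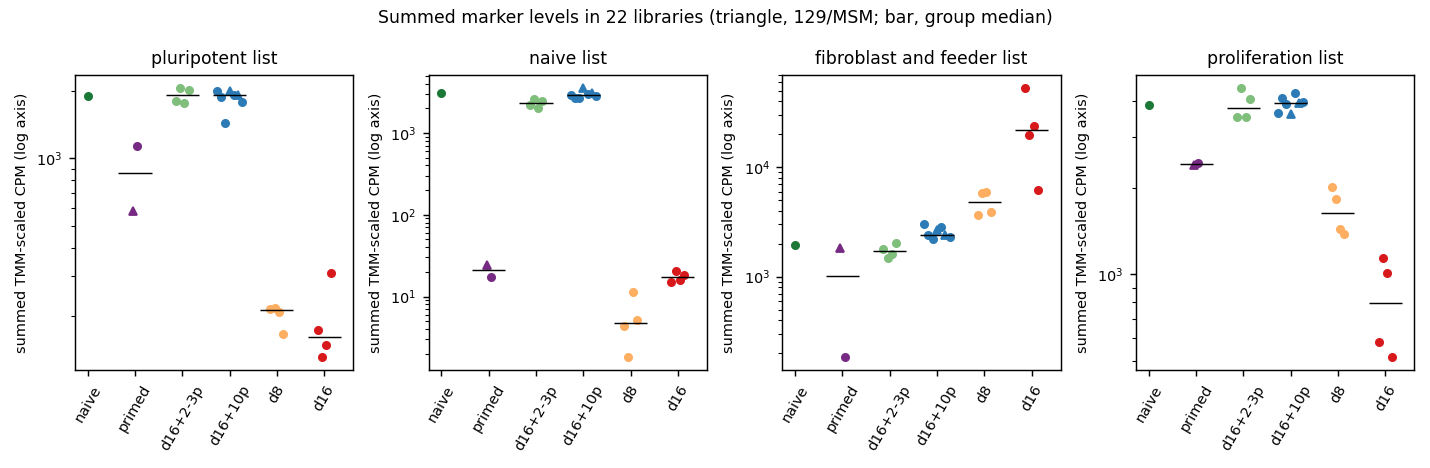
Summed TMM-scaled CPM (log axis) of the pluripotent, naive, fibroblast and feeder, and proliferation lists in 22 libraries, by group, with triangles for 129/MSM and bars at the group median. The d8 and d16 cultures lie lowest for the pluripotent and proliferation lists and highest for the fibroblast and feeder list.

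Within PRC2, Ezh2 encodes the main methyltransferase, Ezh1 its weaker paralog, Eed the subunit that binds the methyl mark and Suz12 the scaffold of the complex. Ezh2 stood at 160 CPM in naive mESCs, 129 CPM in Oct4GIP and 150 CPM in 129/MSM mEpiSCs, at 180, 172, 229 and 224 CPM in early reverted cells (AICAR and AICAR+LIF after 2 passages, then after 3, the order used throughout), at 165 to 228 CPM (median 198) in late reverted cells, at 167, 205, 134 and 128 CPM in d8 cultures and at 55.8, 58.0, 70.4 and 80.4 CPM in d16 cultures. The d16 cultures lay below every other library, and every reverted library lay above both primed ones. Eed stood at 141 CPM in naive mESCs, 72.1 and 69.2 in primed cells, 280, 261, 327 and 329 in early and 141 to 212 (median 183) in late reverted cells, 31.9, 38.0, 62.1 and 57.5 at d8 and 27.1, 25.6, 32.1 and 35.4 at d16. Early reverted cells were highest without overlap, late reverted and naive cells came next, and all 8 cultures lay below the primed libraries.

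Suz12 had 516 CPM in naive mESCs, 129 and 166 in primed cells, 420, 418, 368 and 369 in early and 316 to 536 (median 437) in late reverted cells, 169, 147, 136 and 138 at d8 and 86.8, 61.3, 109 and 102 at d16. Naive and reverted libraries formed a high group that overlapped no primed or culture library, and d8 cultures overlapped the primed range. Ezh1 took a different course, with 60.2 CPM in naive mESCs, 61.3 and 27.1 in primed Oct4GIP and 129/MSM mEpiSCs, 29.9, 36.2, 37.0 and 36.5 in early and 32.4 to 63.1 (median 39.1) in late reverted cells, 18.9, 17.2, 24.7 and 24.9 at d8 and 41.0, 26.4, 29.7 and 21.2 at d16. The d8 cultures were low, and the primed lines differed so much from each other that they spanned nearly all the reverted libraries.

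The accessory members Jarid2, a cofactor that helps recruit PRC2, and Mtf2, a Polycomb-like protein that binds unmethylated CpG-rich DNA, help target the complex to chromatin. Mtf2 had 402 CPM in naive mESCs, 110 and 114 in primed cells, 405, 383, 400.1 and 421 in early and 343 to 428 (median 414) in late reverted cells, 72.4, 90.4, 89.5 and 93.9 at d8 and 37.8, 27.6, 43.2 and 45.8 at d16. These libraries fell into 4 levels that did not overlap, with naive and reverted cells above primed cells, primed cells above d8 cultures and d8 above d16 cultures. Jarid2 had 250 CPM in naive mESCs, 156 and 243 in primed Oct4GIP and 129/MSM mEpiSCs, 329, 286, 298 and 331 in early and 187 to 247 (median 211) in late reverted cells, 201, 202, 153 and 121 at d8 and 75.5, 83.2, 77.2 and 97.9 at d16. Early reverted cells were again highest and d16 cultures lowest, whereas primed, late reverted and d8 libraries overlapped.

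In PRC1, Rnf2 (RING1B) and Ring1 (RING1A) encode the alternative ubiquitin ligases, Cbx7 a chromodomain subunit that reads the PRC2 mark and Bmi1 (PCGF4) a RING partner of the ligase. Cbx7 had 203 CPM in naive mESCs, 165 and 83.4 in primed Oct4GIP and 129/MSM mEpiSCs, 268, 247, 240 and 359 in early and 205 to 340 (median 239) in late reverted cells, 32.6, 27.8, 7.31 and 9.58 at d8 and 14.5, 2.44, 3.09 and 3.35 at d16. The reverted libraries were highest, the cultures lay below all others, and both cultures without AICAR exceeded both with AICAR at d8. Bmi1 followed another order, with 29.8 CPM in naive mESCs, 6.72 and 16.7 in primed cells, 43.4, 41.6, 47.3 and 31.0 in early and 18.2 to 50.3 (median 32.4) in late reverted cells, 79.9, 79.4, 81.3 and 84.3 at d8 and 31.3, 32.1, 57.8 and 48.0 at d16. The d8 cultures were highest and the primed cells lowest, each without overlap.

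Ring1 stood at 8.33 CPM in naive mESCs, 6.35 and 22.2 in primed Oct4GIP and 129/MSM mEpiSCs, 8.62, 6.10, 7.62 and 8.75 in early and 5.59 to 13.7 (median 7.61) in late reverted cells, 28.8, 23.9, 26.5 and 19.2 at d8 and 51.2, 25.6, 18.2 and 23.5 at d16. All 8 cultures lay above all reverted libraries. Rnf2 varied least, from 61.3 CPM in 2iL d16 to 149.8 CPM in 2iL d8. The standard deviation of log2 CPM over the 22 libraries was 0.27 for Rnf2, 0.51 for Ezh1, 0.63 for Ezh2, 0.66 for Jarid2, 0.85 for Bmi1, 0.92 for Ring1, 0.98 for Suz12, 1.27 for Eed, 1.41 for Mtf2 and 2.49 for Cbx7. Over the 10843 genes with a mean log2 CPM of at least 3 the median was 0.62, with quartiles of 0.43 and 0.94, so Rnf2 lay below the lower quartile, and Suz12, Eed, Mtf2 and Cbx7 above the upper one.

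**Figure D2:**
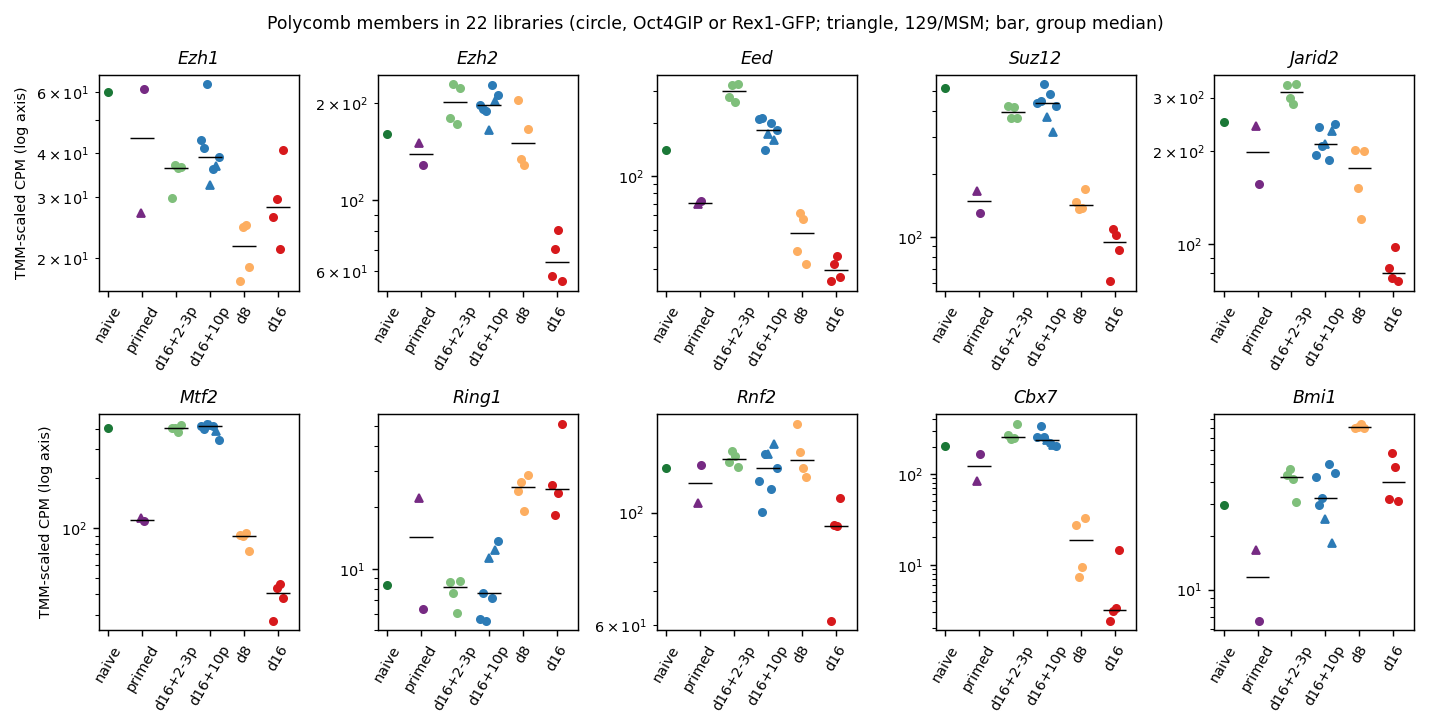
TMM-scaled CPM (log axis) of the 10 Polycomb genes in 22 libraries, by group, with triangles for 129/MSM, circles for Oct4GIP or Rex1-GFP and bars at the group median. Suz12 and Mtf2 are high in naive and reverted libraries, Cbx7 reaches its lowest values in d16 cultures, and Bmi1 is highest in d8 cultures.

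The members were ordered by CPM per kb of annotated transcript. In naive mESCs the order was Mtf2 (132 CPM per kb), Suz12 (129.5), Ezh2 (76.5), Cbx7 (50.6), Jarid2 (47.2), Rnf2 (45.3), Ezh1 (16.4), Bmi1 (10.4) and Ring1 (3.77). Eed is left out of the order, because only 62.7% of its reads fell on transcripts with an annotated length. With 1 library, neighbours such as Mtf2 and Suz12, or Jarid2 and Rnf2 had no spread to be set against. In d16 cultures the median levels ran from Rnf2 (34.8 CPM per kb), Ezh2 (30.6) and Suz12 (23.8) through Jarid2 (15.2), Bmi1 (13.9), Mtf2 (13.4) and Ring1 (11.1) to Ezh1 (7.63) and Cbx7 (0.801). Mtf2 thus moved from the top of this order in naive mESCs to a place among overlapping neighbours in d16 cultures, and Rnf2 moved to the top, where its range (22.6 to 39.5) overlapped that of Ezh2 (26.6 to 38.4).

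For Ezh2, Eed, Suz12 and Mtf2, the PRC2 members higher in late reverted than in primed cells below, the letters before the start sites are shown. RefSeq promoters on GRCm38.p6 were found for all 10 members (12 promoters, with a pair each for Jarid2 and Mtf2), and the 250 bases upstream of each start were searched on both strands for 6 motifs: E2F (GCGGGAA), NRF1 (GCGCANGC), ETS (CCGGAAG), E-box (CACGTG), NFY (CCAAT) and an ESRRB half-site (AAGGTCA). Capitals mark a match on either strand, and no match below overlaps another. The windows, written 5′ to 3′ along the gene, are chr11:79992856-79993105 on the plus strand for Suz12, chr5:108065424-108065673 on the plus strand for the first promoter of Mtf2, chr6:47595031-47595280 on the minus strand for Ezh2 and chr7:89980977-89981226 on the minus strand for Eed.
Suz12: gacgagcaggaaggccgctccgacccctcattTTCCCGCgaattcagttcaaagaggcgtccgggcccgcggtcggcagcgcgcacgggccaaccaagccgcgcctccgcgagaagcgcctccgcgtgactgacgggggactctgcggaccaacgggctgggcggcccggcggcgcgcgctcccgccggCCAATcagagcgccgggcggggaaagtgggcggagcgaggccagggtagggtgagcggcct
Mtf2: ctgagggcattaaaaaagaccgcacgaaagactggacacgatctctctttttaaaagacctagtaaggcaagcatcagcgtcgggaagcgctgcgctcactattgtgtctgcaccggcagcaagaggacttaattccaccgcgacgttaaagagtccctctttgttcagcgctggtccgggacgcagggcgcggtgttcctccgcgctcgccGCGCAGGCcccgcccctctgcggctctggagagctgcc
Ezh2: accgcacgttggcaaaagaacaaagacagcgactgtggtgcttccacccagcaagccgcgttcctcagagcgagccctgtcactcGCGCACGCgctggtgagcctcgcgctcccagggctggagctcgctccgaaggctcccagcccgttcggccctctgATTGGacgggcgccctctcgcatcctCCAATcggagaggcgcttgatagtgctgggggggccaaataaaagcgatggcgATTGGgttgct
Eed: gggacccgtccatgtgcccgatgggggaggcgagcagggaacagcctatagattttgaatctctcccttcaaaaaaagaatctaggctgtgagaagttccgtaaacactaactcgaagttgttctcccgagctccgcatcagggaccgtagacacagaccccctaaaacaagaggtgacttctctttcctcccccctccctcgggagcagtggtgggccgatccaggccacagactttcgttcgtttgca
The Suz12 window held 1 E2F and 1 NFY match, the Mtf2 window 1 NRF1 match, the Ezh2 window 1 NRF1 and 3 NFY matches, and the Eed window none of the 6 motifs. Among the 10 members, 1 had an E2F match, 3 had NRF1 (Ezh1, Ezh2 and Mtf2), 0 ETS, 1 E-box (Bmi1), 5 NFY and 0 the ESRRB half-site. A member counts with a match at any of its promoters, and Mtf2 had NFY only at its second promoter, which is not shown. The shares that follow are per promoter and not per gene. Of all 32851 promoters, 3.82% held the E2F letters, 8.3% NRF1, 6.91% ETS, 6.02% E-box, 33.8% NFY and 4.08% the half-site. A match is a description of letters and not a binding site, and a missing match says only that those letters are not in the window.

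The first comparison asked how late reverted cells differed from the primed cells they came from. Ezh2, Eed, Suz12, Mtf2 and Bmi1 were higher in late reverted cells. In edgeR's quasi-likelihood test 5 of the 10 members were higher at an adjusted p under 0.05, where 16.7% of the 18739 genes tested were higher, and 0 were lower, where 19.9% were. The median log2 fold change was 0.77 over the members and -0.01 over all genes tested. With all libraries in the fit, Mtf2 changed most (log2 fold change 1.86 ± 0.18 SE, adjusted p = 1.14e-07 by edgeR), higher in all 7 libraries than in either primed one. Next came Suz12 (1.57 ± 0.22, adjusted p = 1.49e-05), Bmi1 (1.57 ± 0.37, adjusted p = 0.00219), Eed (1.39 ± 0.21, adjusted p = 3.85e-05) and Ezh2 (0.53 ± 0.19, adjusted p = 0.031), all in edgeR. Cbx7 was also higher in each late reverted library than in either primed one but missed the threshold (1.02 ± 0.46, adjusted p = 0.0913), as did Jarid2 (0.15), Rnf2 (0.11), Ezh1 (-0.05) and Ring1 (-0.64). With Cbx7, 6 members had an unadjusted p under 0.05, where 45.2% of genes did. DESeq2 called the same 5 and limma added Cbx7, as did edgeR with only the groups compared in the fit (0.99, adjusted p = 0.0126). Beside these, 8 of 10 fibroblast and feeder genes were lower and 1 (Fn1) higher in late reverted cells, 4 of 4 endoderm genes tested were lower, and 5 of 10 proliferation genes were higher and 0 lower, and their part in the result was not tested. The endoderm calls rested on primed 129/MSM, with a sum of 387 CPM. That sum was 4.11 CPM in primed Oct4GIP and 3.65 to 5.97 CPM in late reverted cells.

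The 2 primed libraries carried part of this result. Without primed Oct4GIP, Ezh2 (0.43, adjusted p = 0.233 by edgeR) and Bmi1 (1.07, adjusted p = 0.0809) were not called, Ring1 was called lower (-1.26, adjusted p = 0.0422), and 4462 genes in place of 6863 passed. Without primed 129/MSM the value of Bmi1 was 2.37, which exceeded that of Mtf2 (at most 1.88 whichever library was left out). Cbx7, not called with all libraries, was at 1.59 without primed Oct4GIP and at 0.60 without primed 129/MSM, and was called in neither fit. Ezh2 was also not called without primed 129/MSM (0.64, edgeR adjusted p = 0.0624), without AICAR+LIF d16+10p (0.50, 0.0505) or without metformin+LIF d16+10p (0.50, 0.0504). Its call was lost as well without normalization factors (0.43, 0.0623), without the filter (0.51, 0.0888) and with Oct4GIP alone (0.68, 0.0564), 7 of 16 alternatives in all, and in 129/MSM alone it was 0.34 (0.455). Eed, Suz12 and Mtf2 were called whichever library was left out, with log2 fold changes of 1.35 to 1.43, 1.40 to 1.75 and 1.83 to 1.88.

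**Figure D3:**
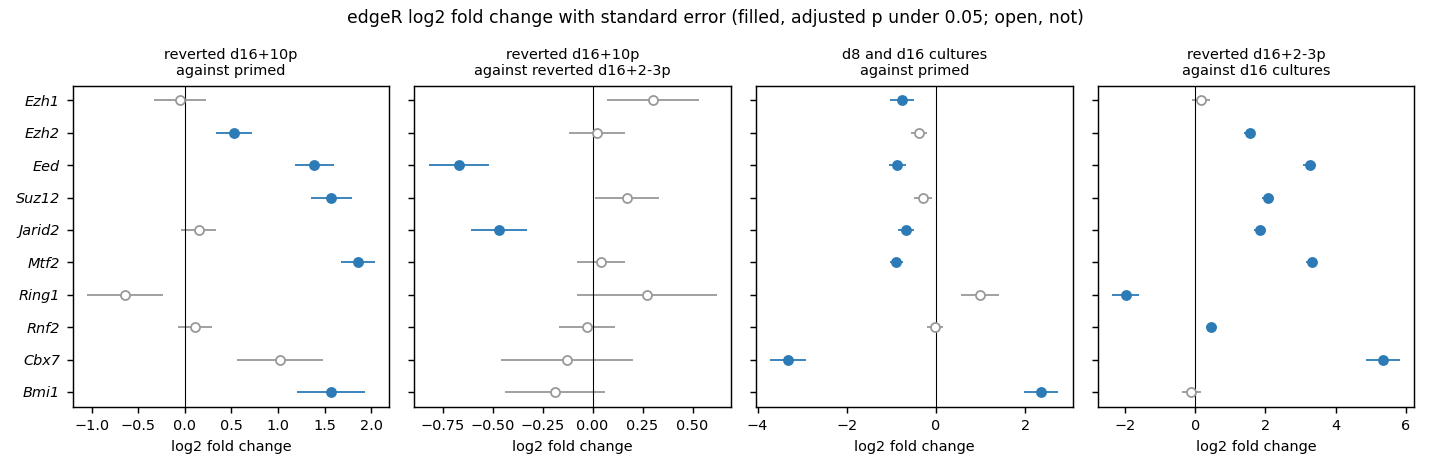
edgeR log2 fold change with its standard error (horizontal axis) of the 10 Polycomb genes in 4 comparisons of states, filled where the adjusted p was under 0.05. Mtf2, Suz12 and Eed are higher in late reverted than in primed cells, and Cbx7 has the largest differences of the members where cultures are involved.

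The contrast was also made for each line. Its arm of primed cells is then 1 library, assumed to vary like the other groups, so that a difference of lines cannot be told apart from a difference of those libraries. In edgeR 0 of the 10 members differed between 129/MSM and Oct4GIP, where 0.326% of genes were higher and 1.05% lower in the 129/MSM contrast, 1 member (Bmi1) had an unadjusted p under 0.05, where 14.9% of genes did. DESeq2 called 1 (Bmi1), where it called 3.85% of genes, and limma 0, where it called 1.74%. For Bmi1 the contrast was 2.58 ± 0.42 in Oct4GIP and 0.40 ± 0.39 in 129/MSM, and the difference was -2.18 ± 0.56 (adjusted p = 0.0575 by edgeR). Without A769662+LIF d16+10p that difference was called (-2.27, adjusted p = 0.0475 by edgeR). The total number of genes called was 258, and 137 and 126 without the 129/MSM library of AICAR or of AICAR+LIF d16+10p. Against the primed library of its own line, each line had Mtf2 (1.88 ± 0.25 in Oct4GIP and 1.86 ± 0.26 in 129/MSM) and Suz12 (1.86 ± 0.28 and 1.10 ± 0.29) higher at an adjusted p under 0.05 in edgeR, and Eed too (adjusted p = 0.00153 and 0.00725).

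Against the range of the 7 late reverted libraries, naive mESCs lay within for 7 members, above for Jarid2 and below for Ezh2 and Cbx7. They lay outside it for 26.2% of the 18739 genes tested. For Ezh1, Eed and Suz12 they lay within only through AICAR d16+10p, the late reverted library with the lowest total. It had 63.1, 140.7 and 536 CPM, against 60.2, 140.9 and 516 CPM in naive mESCs. The naive level was 1.54 times the late reverted median for Ezh1, 0.77 times for Eed and 1.18 times for Suz12. The naive level was 1.18 times the late reverted median for Jarid2, 0.809 times for Ezh2 and 0.849 times for Cbx7. For these 3 the 95% Poisson interval of the naive count (232 to 268 CPM for Jarid2, 147 to 175 for Ezh2 and 188 to 220 for Cbx7) reached into the late reverted range (187 to 247, 165 to 228 and 205 to 340 CPM). This interval covers counting error only, and 1 naive library gives no spread between libraries.

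Late were then compared with early reverted cells, to ask what changed during expansion in 2iL. Eed and Jarid2 were lower after 10 passages. These were 2 of the 10 members, where 4.61% of genes were lower, and 0 were higher, where 4.75% were. DESeq2 and limma called the same 2, which were also the only members with an unadjusted p under 0.05, where 22.9% of genes had one. Eed fell by 0.67 ± 0.15 on the log2 scale (adjusted p = 0.00629 by edgeR) and Jarid2 fell by 0.47 ± 0.14 (adjusted p = 0.0431 by edgeR), each lower in 7 of 7 libraries than in any early one. The call of Jarid2 was lost on leaving out any of the early libraries, or any of the late ones but metformin+LIF d16+10p, with log2 fold changes of -0.50 to -0.44 and edgeR adjusted p-values of 0.0508 to 0.123. Eed stayed called throughout (-0.72 to -0.63). In late Oct4GIP cells after AICAR and AICAR+LIF, the conditions of the early cells, Eed was at 141 and 200 CPM and Jarid2 at 209 and 187 CPM. The total number of genes called was 1753 and fell to 939, 965 and 1087 without AICAR d16+2p, AICAR+LIF d16+2p and AICAR d16+3p. The primed marker Dnmt3b was also lower in late cells, at 41.5 to 231 CPM against 439 to 570 CPM in early ones, and so were the fibroblast and feeder genes Col1a1 and Acta2 among 10 such genes, with 0 higher. The first and second comparisons share the late reverted libraries.

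Whole cultures in all media, none of them expanded, were compared with primed cells to ask how they differed. Of the media in these cultures, the paper reports reverted cells only from those with AICAR. The cultures without AICAR, pooled here with the others, thus did not precede any reverted cells. The contrast describes the pool and not the path to reverted cells, and cultures with AICAR alone were not tested against primed cells. Cbx7, Mtf2, Eed, Ezh1 and Jarid2 were lower in the cultures and Bmi1 was higher. These were 5 of 10 members lower in edgeR, where 19.4% of genes were lower, and 1 higher, where 18.1% were, and the median log2 fold change was -0.53 over the members and 0.04 over all genes. Of those lower, Cbx7 had the largest difference (-3.31 ± 0.40, adjusted p = 4.35e-06 by edgeR), lower in 8 of 8 cultures than in either primed library, followed by Mtf2 (-0.89 ± 0.15, adjusted p = 0.000136), Eed (-0.87 ± 0.19, adjusted p = 0.00136), Ezh1 (-0.76 ± 0.27, adjusted p = 0.0343) and Jarid2 (-0.68 ± 0.18, adjusted p = 0.00547). Bmi1 was higher in 8 of 8 cultures (2.36 ± 0.38, adjusted p = 8.81e-05 by edgeR). Among the members called lower, Ezh1 and Jarid2 overlapped between the groups. Ezh2 (-0.38), Suz12 (-0.29), Rnf2 (-0.02) and Ring1 (0.99) were not called. DESeq2 and limma each called 6 members as well, with Ring1 in place of Ezh1. Without normalization factors, Ezh2 was called lower too (-0.45, adjusted p = 0.0376 by edgeR).

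The same contrast was made for each day, and the difference between days is tested further on. With d8 cultures alone edgeR called 3 members, Cbx7 (-2.42 ± 0.48) and Ezh1 (-0.99 ± 0.32) lower and Bmi1 (2.86 ± 0.41) higher, where 2618 of 18739 genes were higher and 2572 lower. With d16 cultures alone it called 7, with Ezh2 (-1.04 ± 0.19), Suz12 (-0.68 ± 0.21), Eed (-1.20 ± 0.21), Jarid2 (-1.22 ± 0.20), Mtf2 (-1.50 ± 0.17) and Cbx7 (-4.21 ± 0.50) lower and Bmi1 (1.87 ± 0.39) higher, where 4126 genes were higher and 3824 lower. Ezh1 rested on primed Oct4GIP, without which it was at -0.06 (adjusted p = 0.951 by edgeR) and 4115 genes in place of 7032 passed, and it was at -1.29 without primed 129/MSM. It was also not called without Basal d8 (-0.73), 2iL d16 (-0.71) or AICAR+LIF d16 (-0.70), or with only the groups compared in the fit (-0.84). Without primed 129/MSM, Jarid2 was not called (-0.37, edgeR adjusted p = 0.202) and Ring1 was (2.11, adjusted p = 0.00909), and without 2iL d8, Ezh2 was (-0.49, adjusted p = 0.0231). Beside these differences, 7 of 10 fibroblast and feeder genes were higher and 0 lower in the cultures, 8 of 10 proliferation genes were lower and 0 higher, 4 of 4 endoderm genes tested were lower, and of the 3 pluripotency genes Pou5f1 (-6.50 ± 0.64) and Nanog (-3.53 ± 0.70) were lower and Sox2 higher (1.65 ± 0.33). Their part in the result was not tested. The endoderm calls rested on primed 129/MSM, where the 5 endoderm genes summed to 387 CPM. Their sum was 4.11 CPM in primed Oct4GIP, the line of all 8 cultures, and 0.391 to 10.4 CPM in the cultures. This comparison shares the primed libraries with the first.

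From d8 to d16, within the cultures and with the medium as a term, Ezh2, Suz12, Jarid2, Mtf2, Cbx7 and Bmi1 were lower. In edgeR 6 of 10 members were lower, where 9.5% of the 14026 genes tested were, and 0 were higher, where 14.7% were (8 had an unadjusted p under 0.05, where 40.7% of genes did, and DESeq2 and limma each called the same 6). The median log2 fold change was -0.91 over the members and 0.01 over all genes. Ezh2 fell by 1.30 ± 0.21 on the log2 scale (adjusted p = 0.00945 by edgeR), Mtf2 fell by 1.22 ± 0.19 (0.0085), Jarid2 fell by 1.05 ± 0.20 (0.0144), Bmi1 fell by 1.04 ± 0.19 (0.0134), Suz12 fell by 0.79 ± 0.19 (0.0281) and Cbx7 fell by 1.83 ± 0.45 (0.0301), each in 4 of 4 media. Cbx7 overlapped between the days. Its counts in AICAR and AICAR+LIF were low, with 8 and 5 at d8 and 10 and 9 at d16. Eed (-0.64, adjusted p = 0.0588 by edgeR) and Rnf2 (-0.61, 0.0817) missed the threshold, and Ezh1 (0.47) and Ring1 (0.17) were not called.

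Without the medium term the call of Cbx7 was lost (-1.74, adjusted p = 0.0949 by edgeR). Without normalization factors Eed was called (-0.78, adjusted p = 0.0388 by edgeR). Leaving out any of the 8 cultures ended the calls of Suz12 (-0.92 to -0.64, edgeR adjusted p = 0.0505 to 0.097) and Cbx7 (-2.25 to -1.30, adjusted p = 0.0547 to 0.0634), and the count of members was then 2 to 4. In place of 3398 genes, 1300, 1750 and 1979 passed without Basal, 2iL and AICAR d8, and 1148, 1678 and 1806 without Basal, 2iL and AICAR d16. Members called were 2 without Basal d8 or Basal d16, and 3 without AICAR d8 or AICAR d16. Jarid2 was not called without Basal d8 (-0.95), AICAR d8 (-1.05), Basal d16 (-0.94) or AICAR d16 (-1.04), and Bmi1 not without Basal d8 (-0.95) or Basal d16 (-0.94). Ezh2 and Mtf2 were called in each of these. Of the proliferation genes 8 of 10 were lower at d16 and 0 higher, and of the fibroblast and feeder genes 6 of 10 were higher and 0 lower. The proliferation list, led by Top2a, summed to 1381, 2009, 1833 and 1435 CPM at d8 and to 517, 580, 1143 and 1011 CPM at d16, against 3869 in naive mESCs, 2430 and 2406 in primed cells, 3508 to 4438 in early and 3598 to 4255 in late reverted cells, and its part in the result was not tested.

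Early reverted cells were set against the 4 d16 cultures, of which the AICAR and AICAR+LIF ones had their treatments. All 6 PRC2 members but Ezh1, together with Cbx7 and Rnf2, were higher after 2 or 3 passages, and Ring1 was lower. In edgeR 7 of 10 members were higher, where 33.2% of genes were, and 1 was lower, where 37.9% were. The median log2 fold change was 1.70 over the members and -0.15 over all genes. DESeq2 and limma called the same 8. Cbx7 had the largest difference (5.36 ± 0.48, adjusted p = 6.55e-09 by edgeR), then Mtf2 (3.32 ± 0.15, adjusted p = 6.58e-13), Eed (3.26 ± 0.19, adjusted p = 1.78e-11), Suz12 (2.07 ± 0.18, adjusted p = 6.52e-09), Jarid2 (1.84 ± 0.17, adjusted p = 1.12e-08), Ezh2 (1.55 ± 0.16, adjusted p = 6.91e-08) and Rnf2 (0.46 ± 0.16, adjusted p = 0.0137). Ring1 was lower (-1.99 ± 0.38, adjusted p = 0.0001 by edgeR). Ezh1 (0.17) and Bmi1 (-0.11) overlapped between the groups and were not called.

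Rnf2 was not called without AICAR d16+2p (0.39, edgeR adjusted p = 0.053), AICAR+LIF d16+2p (0.36, 0.0689), AICAR d16+3p (0.37, 0.061) or 2iL d16 (0.23, 0.14), nor against the AICAR and AICAR+LIF d16 cultures alone (0.38, 0.0976). The 3 pluripotency and 5 naive markers were all higher in early reverted cells, as were 10 of 10 proliferation genes, and 9 of 10 fibroblast and feeder genes were lower. The part of these cells in the members' differences was not tested. This comparison shares the early reverted libraries with the second and the d16 cultures with both culture comparisons.

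**Figure D4:**
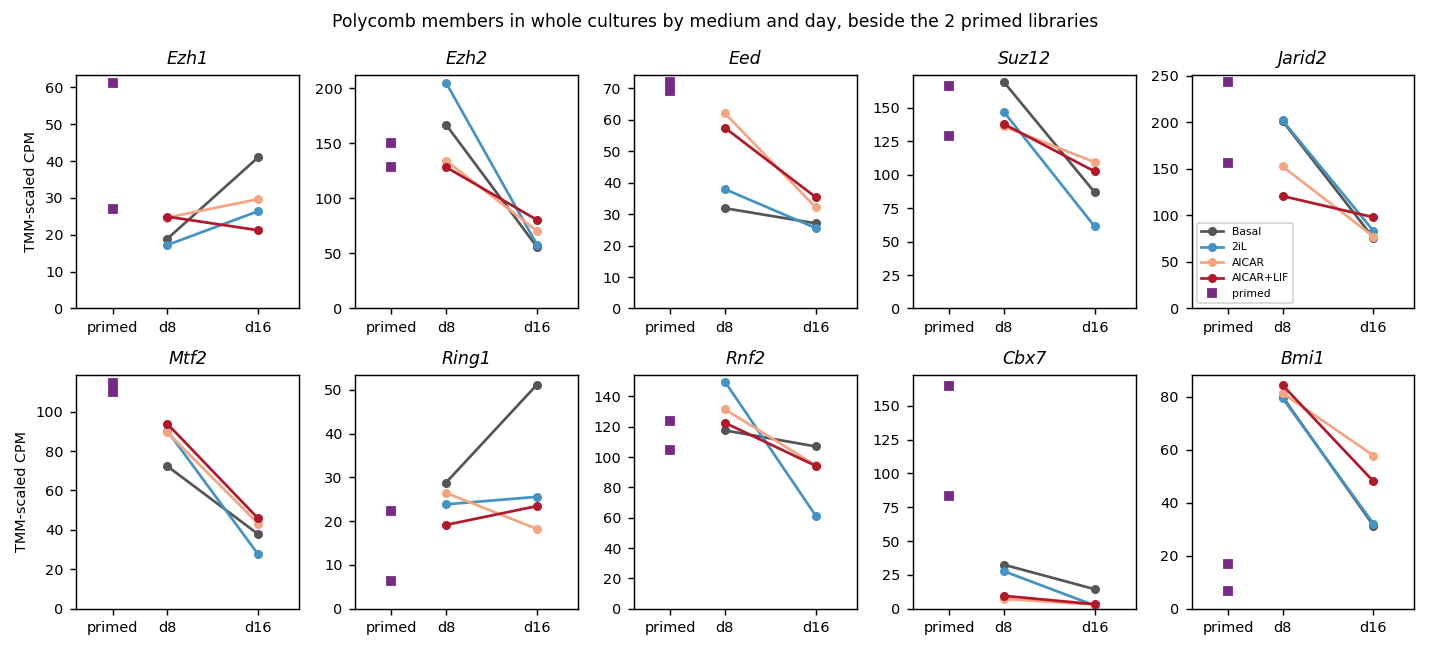
TMM-scaled CPM of the 10 Polycomb genes in the 2 primed libraries and in the whole cultures at d8 and d16, with a line for each medium. Ezh2, Jarid2, Mtf2 and Bmi1 are lower at d16 than at d8 in all 4 media, and Cbx7 at d8 is lower with AICAR than without.

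Cultures with AICAR (AICAR and AICAR+LIF) were compared with those without (Basal and 2iL) within the 8 cultures, with the day as a term. Because 2iL holds LIF and inhibitors of MEK and GSK3, the contrast was not of AICAR alone. Cbx7 was at 19.3 CPM on average without AICAR and 5.83 with it, and Eed at 30.6 and 46.8, but neither passed. In edgeR 0 of 10 members were called, where 3.54% of genes were higher and 6.06% lower, 3 had an unadjusted p under 0.05 (Eed, Cbx7 and Bmi1), where 29.2% of genes did. DESeq2 called 1 (Cbx7), where it called 15.3% of genes, and limma 0, where it called 10.2%. The values were -1.62 ± 0.48 for Cbx7 (adjusted p = 0.0678 by edgeR), 0.60 ± 0.17 for Eed (0.0653) and 0.44 ± 0.16 for Bmi1 (0.116). Without 2iL d16, Cbx7 was called (-1.98, adjusted p = 0.00422 by edgeR), and 2654 genes in place of 1347 passed. Without Basal d16, Cbx7 was at -1.06 and was not called. Without the filter it was called (-1.65, adjusted p = 0.000325 by edgeR). Its counts were 8 and 5 in AICAR and AICAR+LIF d8, 10 and 9 in the same media at d16, and 6 in 2iL d16. The number that passed was 394, 613, 245 and 442 genes without Basal, 2iL, AICAR and AICAR+LIF d8, and 736, 638 and 415 without Basal, AICAR and AICAR+LIF d16. Pou5f1 was higher with AICAR (4.17 ± 0.67, adjusted p = 0.0119 by edgeR), at 18.3 against 0.927 CPM on average, and so was Nanog (3.28 ± 0.82), whereas Sox2 was not called (-0.72 ± 0.28). Of the markers of other cells, 3 of 10 fibroblast and feeder genes (Postn, Pdgfrb and Fn1) and Actc1 were higher with AICAR, and their part in the result was not tested. A test of whether the effect of AICAR differed between d16 and d8, added after the data were seen, called 0 of 10 members in edgeR, where 0.0452% of 15473 genes were higher and 0.0905% lower. In it 1 member, Ezh2, had an unadjusted p under 0.05, where 14.7% of genes did, and DESeq2 and limma were not run.

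LIF was described over the 6 pairs of libraries with AICAR or AICAR+LIF at the same line, day and passage, without a test. No member moved in the same direction in all 6 pairs. The log2 ratio of AICAR+LIF to AICAR ranged least for Mtf2 (-0.11 to 0.08) and Suz12 (-0.24 to 0.02), and most for Bmi1 (-0.61 to 0.63) and Ezh1 (-0.80 to 0.28).

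Ratios within a library do not depend on its scaling. The log2 ratio of Ezh1 to Ezh2 counts was -1.41 in naive mESCs, -1.07 and -2.46 in primed Oct4GIP and 129/MSM mEpiSCs, -2.59, -2.24, -2.63 and -2.61 in early and -2.65 to -1.58 (median -2.34) in late reverted cells, -3.13, -3.56, -2.42 and -2.32 at d8 and -0.44, -1.13, -1.24 and -1.91 at d16. Ezh2 counts exceeded Ezh1 counts in every library, and the d16 cultures lay above the d8 cultures without overlap. As a share of the Ezh1 and Ezh2 counts, Ezh1 made up 27.3% in naive mESCs (95% Wilson interval 24.1 to 30.7), 7.75% in 2iL d8 (5.82 to 10.2) and 42.3% in Basal d16 (38.2 to 46.6). Wilson intervals, here and below, cover counting error only and not the spread between libraries. Per kb, the ratio of Ezh1 to Ezh2 was 0.214 in naive mESCs, and its median was 0.112 in late reverted cells and 0.25 in d16 cultures.

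For the ligases, the log2 ratio of Ring1 to Rnf2 counts was -3.86 in naive mESCs, -4.25 and -2.23 in primed Oct4GIP and 129/MSM mEpiSCs, -3.84, -4.36, -4.08 and -3.79 in early and -4.48 to -3.15 (median -3.68) in late reverted cells, -2.02, -2.64, -2.29 and -2.62 at d8 and -2.36 to -1.06 (median -1.62) at d16. All cultures lay above all naive and reverted libraries, and the primed lines lay apart, 129/MSM near the cultures and Oct4GIP near the reverted cells. Ring1 made up 6.36% of the pair in naive mESCs (95% Wilson interval 4.37 to 9.15), 4.87% in primed Oct4GIP (3.06 to 7.66), 17.5% in primed 129/MSM (14.1 to 21.6) and 32.4% in Basal d16 (29.3 to 35.6).

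**Figure D5:**
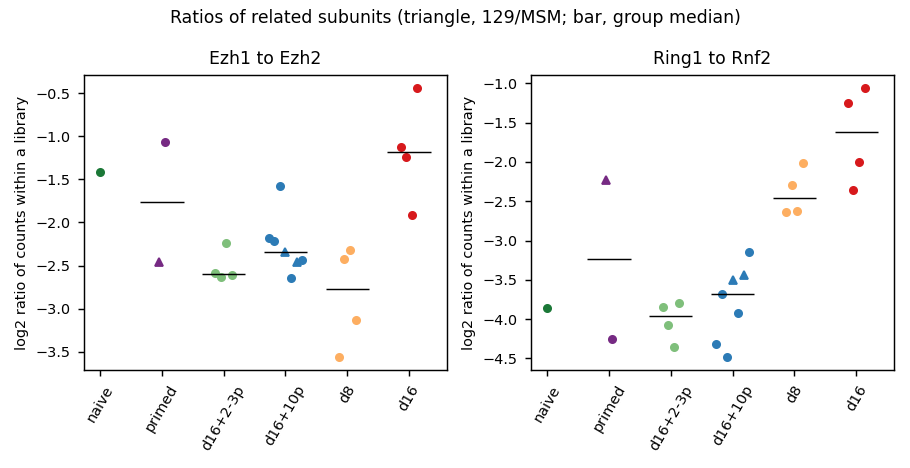
log2 ratio of counts within a library for Ezh1 to Ezh2 and for Ring1 to Rnf2, by group, with triangles for 129/MSM and bars at the group median. Both ratios are higher in d16 cultures than in reverted libraries, apart from an Ezh1 to Ezh2 ratio of -1.58 in AICAR d16+10p, which exceeds that of AICAR+LIF d16 (-1.91).

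The wider Polycomb list held 36 other genes, with 7 PRC2 accessory, 10 canonical PRC1, 14 variant PRC1 and 5 opposing enzyme genes. Late reverted against primed cells, 9 of 36 were higher and 6 lower in edgeR, where 16.7% and 19.9% of all genes were. Epop, a PRC2 accessory factor, had the largest difference (3.73 ± 0.42, adjusted p = 9.65e-07 by edgeR), from 20.9 and 29.3 CPM in primed Oct4GIP and 129/MSM to 191 to 446 CPM in late reverted cells. Lcor (2.58 ± 0.42), L3mbtl2 of variant PRC1 (1.31 ± 0.26) and Pcgf2 (0.89 ± 0.19), the paralog of Bmi1, were also higher. Yaf2 (-1.84 ± 0.28) and Pcgf5 (-1.29 ± 0.40) of variant PRC1, and the Polyhomeotic genes Phc2 (-1.62 ± 0.27) and Phc1 (-1.19 ± 0.27), were lower.

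Late against early reverted cells, 3 of 36 were higher, among them Auts2 (1.11 ± 0.32) and Mga (0.52 ± 0.16), and 2 were lower, Kdm2b (-1.06 ± 0.23), which recruits variant PRC1 to CpG islands, and Epop (-0.81 ± 0.24), where 4.75% of all genes were higher and 4.61% lower. In the cultures against primed cells 10 of 36 were higher, among them Lcor (1.87 ± 0.41), Auts2 (1.23 ± 0.40) and Phc2 (1.16 ± 0.30), and 11 lower, among them Phc1 (-2.92 ± 0.25), Epop (-2.12 ± 0.36), Pcgf6 (-1.23 ± 0.20) and L3mbtl2 (-1.19 ± 0.23), where 18.1% of all genes were higher and 19.4% lower. Phc1 had 861 CPM in primed Oct4GIP, 322 in primed 129/MSM and 49.9 to 114 CPM in the cultures, which lay below all other libraries.

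Early reverted cells against d16 cultures, 18 of 36 were higher, among them Epop (7.12 ± 0.39), L3mbtl2 (3.07 ± 0.23), Phc1 (2.55 ± 0.27) and Kdm2b (2.27 ± 0.28), and 11 lower, among them Yaf2 (-3.06 ± 0.29), Phc2 (-2.41 ± 0.26) and Auts2 (-1.69 ± 0.35), all at an adjusted p under 0.05 in edgeR, where 33.2% of all genes were higher and 37.9% lower. From d8 to d16, 2 of the 35 genes tested were higher, with Cbx6 at 1.04 ± 0.21, and 10 lower, with Cbx2 at -1.88 ± 0.34 and Lcor at -1.84 ± 0.38, where 14.7% and 9.5% of all genes were. With AICAR, 2 of 35 were higher, Rbbp7 (0.89 ± 0.21) and Rybp (0.83 ± 0.15), and 1 lower, Phf1 (-0.78 ± 0.19), where 3.54% and 6.06% of all genes were.

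Of 12 genes known as Polycomb targets in embryonic stem cells or embryos, 10 were tested between states. Late reverted against primed cells 4 were lower (Cdkn2b, Gata4, Gata6 and Sox17) and 0 higher, where 19.9% and 16.7% of all genes were. Sox17 had 143 CPM in primed 129/MSM against 0 in primed Oct4GIP, and was at 0 to 1.22 CPM in late reverted cells, and Gata4 had 83.7 and 0.374 CPM in the same primed libraries, so this difference rested on 129/MSM. The summed level of the 12 was 42.9 CPM in naive mESCs, 6.72 and 372 in primed Oct4GIP and 129/MSM mEpiSCs, 14.2 to 26.8 in early and 20.7 to 44.6 in late reverted cells, 354, 291.5, 316 and 224 at d8 and 382, 180, 185 and 250.5 at d16. The cultures and primed 129/MSM were high and the naive, reverted and primed Oct4GIP libraries low, and Olig2 was at 0 in naive and primed cells. In the cultures against primed cells 5 were higher (Msx1, Msx2, Pax3, Pax6 and Olig2) and 3 lower (Gata4, Gata6 and Sox17). Of all genes, 18.1% were higher and 19.4% lower there. Gata4, Gata6 and Sox17 were at 0 to 0.374 CPM in primed Oct4GIP and 83.7 to 143 CPM in primed 129/MSM. Their calls in the cultures thus also rested on 129/MSM. Pax3, a neural crest and muscle regulator, had the highest CPM of the 12 in Basal, 2iL and AICAR d8 (213, 201 and 139.7 CPM), and was at 0 in primed 129/MSM. Early reverted cells against d16 cultures 7 were lower and 0 higher, where 37.9% and 33.2% of all genes were. Late against early reverted cells 1 was higher, where 4.75% of all genes were. This was Cdkn2a, at 9.72 to 32.9 CPM against 2.77 to 6.10. From d8 to d16 Msx1 was higher and Pax3 lower among 6 tested, where 14.7% and 9.5% of all genes were. In the line difference 3 of 10 (Cdkn2a, Gata4 and Gata6) were lower, where 1.05% of all genes were.

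Among themselves, the members' log2 CPM over the 22 libraries had the highest Pearson r for Suz12 and Mtf2 (0.98), Eed and Mtf2 (0.96), Mtf2 and Cbx7 (0.93), Eed and Suz12 (0.91) and Ezh2 and Jarid2 (0.90). Ring1 had a negative r with 8 of the other 9 members, as low as -0.83 with Eed and with Mtf2, and Bmi1 was positive with it (0.33). Bmi1 stood apart, with r between -0.61 (Ezh1) and 0.33. These libraries share states, so r describes the differences between states, and no p is given. Of the 10 proliferation genes, 5 were higher in late reverted than in primed cells (Mcm2, Mcm3, Mcm5, Pcna and E2f1) and 2 with AICAR (Mcm3 and Mcm5). With the mean log2 CPM of the 10 proliferation genes over the same 22 libraries, r was 0.97 for Mtf2, 0.94 for Suz12, 0.92 for Ezh2 and Eed, 0.90 for Cbx7, 0.89 for Jarid2, 0.59 for Rnf2, 0.45 for Ezh1, -0.17 for Bmi1 and -0.82 for Ring1. Of 10843 genes, those most like Ezh2 over the 22 libraries were Mcm2 (r 0.95), Dhx15 (0.94), Lmnb1 (0.94), Hnrnpk (0.94) and Rnf44 (0.93), and those most like Ezh1 were Suclg2 (0.85), Snx2 (0.84), Hagh (0.82), Mrps16 (0.81) and Swap70 (0.81). Cbx7 was most like Usp28, Pcgf6, Rbm26 and Odf2 (each 0.98) and Gm6397 (0.97), and Bmi1 most like Timm29 (0.88), Ncoa6 (0.86), Gm20716, Hnrnpr and Stam2 (each 0.85).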

How the data were processed

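The authors aligned single reads of mRNA to GRCm38 transcripts with Bowtie2 2.2.5 and deposited counts per Ensembl gene, which were used here without change. Deposited counts per transcript served only for the lengths behind the values per kb. Levels are CPM scaled by TMM factors. edgeR 4.0.16 in R 4.3.3 compared states by its quasi-likelihood test (filterByExpr, Benjamini-Hochberg over all genes tested, threshold 0.05), in a model of 22 libraries in 6 groups. The naive library entered no contrast. Day and AICAR were tested in the 8 cultures, with the medium or the day as a term, and the line difference in 8 groups. Alternatives were limma 3.58.1, DESeq2 1.42.0, a fit without the filter or without normalization factors, other sets of libraries or terms, a pseudocount of 0 or 1 for the ratios, and each library left out in turn.

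The members and lists were chosen with earlier results of these data known. Named genes are all members. From the wider list they are among the up to 4 genes per direction and comparison of states, or 2 within cultures, with the largest called change and a mean log2 CPM of at least 3. For Ezh2, Ezh1, Cbx7 and Bmi1 they are the 5 genes with the highest r. Genes named from marker, target and proliferation lists beyond these were chosen after their values were seen. Figures were drawn with matplotlib 3.10.9, and other calculations used scipy 1.17.1, pandas 2.3.3 and numpy 2.4.6 in Python 3.11.15. The naive library was not tested.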

Additional observations from a re-analysis of the deposited data

Results flagged for a closer look

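In 4 of the 40 combinations of a member and a group of 4 to 7 libraries, 1 library lay far from the others. Chance gives about 1 in 20 such groups. Ezh1 in AICAR d16+2p had 29.9 CPM, against 36.2 CPM in the nearest early reverted library. Ezh1 in AICAR d16+10p had 63.1 CPM, against 43.7 CPM in the nearest late reverted library. Cbx7 in A769662+LIF d16+10p had 340 CPM, against 257 CPM in the nearest late reverted library. Cbx7 in Basal d16 had 14.5 CPM, against 3.35 CPM in the nearest d16 culture.

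For Ezh2 and Suz12, both cultures with AICAR lay below both without it at d8 and above both at d16, in opposite directions on the 2 days. The log2 ratio of the means with and without AICAR was -0.50 at d8 and 0.41 at d16 for Ezh2, and -0.21 and 0.52 for Suz12. In a fit with a term for the difference between days, chosen after the data were seen, that difference was 0.81 ± 0.26 for Ezh2 (adjusted p = 0.222 by edgeR) and 0.62 ± 0.30 for Suz12 (adjusted p = 0.381 by edgeR), so neither passed.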

How the results depend on the processing

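Of 1080 alternative values of the members' log2 fold changes, 964 kept their direction and their side of the threshold, 61 lost a call, 17 gained one and 38 changed sign. Of the 442 alternatives to a called value, 381 were called in the same direction, 61 were not called and 0 changed sign.

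Leaving out 1 library at a time, edgeR called 4 to 5 members and 4462 to 6766 genes for late reverted against primed cells, 1 to 2 and 939 to 1847 for late against early reverted cells, 5 to 7 and 4115 to 7260 for cultures against primed cells, 7 to 8 and 12629 to 12953 for early reverted cells against d16 cultures, 2 to 4 and 1148 to 2700 for d16 against d8, 0 to 1 and 245 to 2654 for AICAR, and 0 to 1 and 126 to 258 for the line difference.

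Other settings moved counts by over 1.5 times. Late against early reverted cells, 1 member was called without normalization factors and 1 without the filter, and 3002 genes were called with only the groups compared in the fit. In cultures against primed cells, 4595 genes were called with only the groups compared, and 3 members with d8 cultures alone. For AICAR, 1 member and 2140 genes were called by DESeq2, 1 and 3143 without the filter, 37 genes without the day term and, in an alternative chosen after seeing the data, 0 genes with d16 cultures alone (edgeR, 2527 at an unadjusted p under 0.05, no other tool run). For the line difference DESeq2 called 1 member and 721 genes. The cause was not tested. The alternative of Basal medium and 2iL alone for d16 against d8, which called 3485 genes in place of 3398, was also chosen after seeing the data.

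Signs changed for values that were not called. Late reverted against primed cells, these were Ezh1 by limma (0.03), and Ring1 (0.34) and Rnf2 (-0.08) in Oct4GIP alone. Late against early reverted cells, they were Rnf2 without normalization factors (0.01), Ezh2 (-0.02) and Mtf2 (-0.01) without the filter, Mtf2 without the 3 libraries of lowest total (-0.01) and Bmi1 in Oct4GIP alone (0.01). In cultures against primed cells, they were Rnf2 by DESeq2 (0.06), and Ezh2 (0.29), Suz12 (0.10) and Rnf2 (0.28) with d8 cultures alone. For AICAR, they were Ezh2 by limma (0.01), without normalization factors (0.08) and at d16 alone (0.39), and Jarid2 at d16 alone (0.13), and for the line difference Mtf2 by DESeq2 (0.03). Leaving out 1 library, the log2 fold change ranged from -0.54 to 0.65 for Ezh1, -0.14 to 0.49 for Jarid2, -1.26 to 0.53 for Ring1 and -0.02 to 0.24 for Rnf2 in late reverted against primed cells. It ranged from -0.03 to 0.08 for Ezh2, -0.07 to 0.01 for Rnf2 and -0.22 to 0.01 for Cbx7 in late against early reverted cells, from -0.19 to 0.11 for Rnf2 in cultures against primed cells, and from -0.29 to 0.08 for Bmi1 in early reverted cells against d16 cultures. It ranged from -0.15 to 0.43 for Ring1 in d16 against d8, from -0.11 to 0.12 for Ezh2 and -0.08 to 0.25 for Rnf2 with AICAR, and from -0.07 to 0.04 for Mtf2 in the line difference.

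Without normalization factors the median log2 fold change of all genes was -0.14 in place of 0.01 from d8 to d16, and the genes called were 1727 higher and 1807 lower in place of 2066 and 1332. For AICAR they were 776 and 650 in place of 497 and 850. Low totals limit AICAR+LIF d8 and AICAR d8 most, and differences between activators, passages or lines within a state were not tested.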
